A study of Mus musculus with 30 samples.

Results

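The genes described here encode the subunits and dedicated partners of the proteasome, measured by RNA-seq of mouse liver. They were taken from the table of gene counts by name: a protein-coding gene whose symbol began with Psma, Psmb, Psmc, Psmd or Psme followed by a digit was a candidate, and it became a member if every one of the 30 libraries held at least 10 of its reads. Of 55335 genes in the table, 45 were candidates and 42 were members. The 3 that did not pass were Psmb11, the thymus-specific catalytic subunit, with 0 to 2 counts per library, Psma8, a testis form of an alpha subunit, with 7 to 44 counts, and Psmc3ip, with 4 to 32 counts, whose symbol matches although its product is a meiotic recombination factor and no proteasome subunit. By textbook role the members comprised 7 alpha-ring subunits, 4 non-catalytic and 3 catalytic beta subunits, 3 immunoproteasome catalytic subunits, 6 ATPases and 3 non-ATPase subunits of the base of the regulatory cap, 8 subunits of its lid, 3 chaperones that assemble the cap, 4 other activators, and Psme2b, a near copy of Psme2. Reads that fit both Psme2 and Psme2b could have been assigned to either gene, so the values of Psme2b are uncertain.

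The livers came from male mice of 3 genotypes on the albino C57BL/6J background, aged 7 to 10 weeks. Wild-type mice were compared with C151S mice, in which both Keap1 alleles were edited so that the cysteine of KEAP1 named in the allele, a sensor of electrophiles, is a serine, and with Nrf2-knockout mice, which lack functional Nfe2l2, the gene of the transcription factor NRF2. Each genotype received a single oral dose of 30 µmol/kg CDDO-Me (bardoxolone methyl, a synthetic triterpenoid that activates NRF2) or the vehicle alone, a mixture of DMSO, Cremophor-EL and phosphate-buffered saline, and liver was collected 24 h later. All 6 groups of genotype and treatment held 5 libraries, each named below by its group and replicate number. The edit and the deletion are present in every cell of the animal from conception, so a difference between genotypes at the time of sampling includes what the animals carried through life.

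The proteasome degrades proteins tagged with ubiquitin. Its core is a barrel of alpha and beta rings with the catalytic beta subunits facing the inside, and the regulatory cap at its ends recognises the ubiquitin chain, removes it, unfolds the substrate by its ATPases and feeds it into the barrel. Interferon replaces the constitutive catalytic subunits by the immunoproteasome ones, which favour peptides for antigen presentation, and the activators can take the place of the cap. Proteasome genes are known targets of the factor NRF1 (gene Nfe2l1), which raises them together when proteasome activity falls, and some of them have been described as targets of NRF2 in cells and liver.

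The libraries held 23667068 to 42073169 reads assigned to genes, with a median of 33229925. Nfe2l2 had 60.4 to 71.0 CPM (counts on the usual per-library scale, adjusted by the trimmed mean of M-values, TMM) in the wild-type vehicle group and 29.5 to 39.8 in the Nrf2-knockout vehicle group, a log2 difference of 0.89 (adjusted p = 0.000394, SE 0.10), so transcripts of the gene remained countable in the knockout animals. Nqo1, the standard NRF2 target, averaged 7.20 CPM in wild-type livers after vehicle and 64.4 after CDDO-Me, 6.70 and 7.05 in C151S livers, and 1.96 and 2.55 in Nrf2-knockout livers. Hepatocyte marker genes (Alb, Ttr, Apoa1, Serpina1c and Cps1) summed to 63997 to 148052 CPM, the 9 leukocyte markers to 71.9 to 238 CPM and the 6 macrophage markers to 81.9 to 302 CPM, and none of these markers was at or below 3 counts in every library. One feature separated the mutant libraries among themselves: Arntl, the core gene of the circadian clock, stood at −1.15 to 0.90 log2 CPM in 11 libraries, all of them C151S or Nrf2-knockout, and at 2.52 to 4.79 in the other 19, which included all 10 wild-type libraries. The low-Arntl libraries are 2 of the C151S vehicle group and 3 of each other mutant group. Arntl level and genotype cannot be told apart between the wild-type and the low-Arntl mutant libraries, and values from fits of the high-Arntl libraries alone are given beside the results they move.

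Levels of different genes were compared as CPM per kilobase of transcript, averaged over all 30 libraries. The length was that of the annotated principal transcript of each gene. Which transcripts the livers made was not checked, so the order of genes depends on these lengths. Psmb6, the caspase-like catalytic subunit, stood highest at 156 CPM per kilobase. The trypsin-like catalytic subunit Psmb7 had 109 CPM per kilobase, while Psmb5, the chymotrypsin-like one, had 38.5, although the assembled core holds these 3 proteins in equal number. The immunoproteasome counterparts were far lower, at 15.03 CPM per kilobase for Psmb8, 9.75 for Psmb9 and 23.5 for Psmb10. For the counterparts Psmb5 and Psmb8, Psmb6 and Psmb9, and Psmb7 and Psmb10, the range over the 30 libraries of the constitutive subunit lay wholly above that of its immunoproteasome form, so liver transcripts of the core were mainly those of the constitutive form.

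Among the alpha-ring subunits, the levels ran from 25.9 CPM per kilobase for Psma2 to 110 for Psma7, with Psma3 at 28.5, Psma5 at 33.6, Psma1 at 72.8, Psma6 at 87.9 and Psma4 at 103. The non-catalytic beta subunits were closer together, from 70.05 CPM per kilobase for Psmb1 through Psmb3 at 71.7 and Psmb2 at 75.2 to 96.9 for Psmb4. The 6 ATPases of the base, which form the ring that unfolds the substrate, had levels of 36.99 CPM per kilobase for Psmc6, 51.3 for Psmc2, 53.6 for Psmc5, 59.4 for Psmc4, 73.8 for Psmc1 and 75.8 for Psmc3. Members that share a ring in fixed number thus differed in CPM per kilobase, by over 4-fold between Psma2 and Psma7. The lengths used for these genes were 2911 and 914 bases, so much of that gap comes from the length.

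Of the other base subunits, the ubiquitin receptor Psmd4 had 73.8 CPM per kilobase and the scaffold Psmd2 69.6, against 32.6 for the scaffold Psmd1. The lid, which carries the enzyme that cuts the ubiquitin chain off, ran from 32.04 CPM per kilobase for that enzyme, Psmd14, through Psmd13 at 34.5, Psmd11 at 37.6, Psmd12 at 41.9, Psmd3 at 42.2, Psmd6 at 43.4 and Psmd7 at 48.1 to 75.8 for Psmd8. The chaperones that help to build the base and do not stay in the finished particle were low per kilobase, with Psmd9 at 15.4 CPM per kilobase, Psmd5 at 7.999 and Psmd10 at 6.53. The length used for Psmd5 was 4397 bases. Of the activators, Psme1 and Psme2, which together form the interferon-inducible ring, had 72.1 and 66.3 CPM per kilobase, and the nuclear activators Psme3 and Psme4 had 21.1 and 20.97. Psme2b was listed at 3.71 CPM per kilobase. Neighbours in this order, such as Psmd8 and Psmc3 at 75.8 each, overlapped across libraries, and the plot of levels per length shows these ranges.

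**Figure D1:**
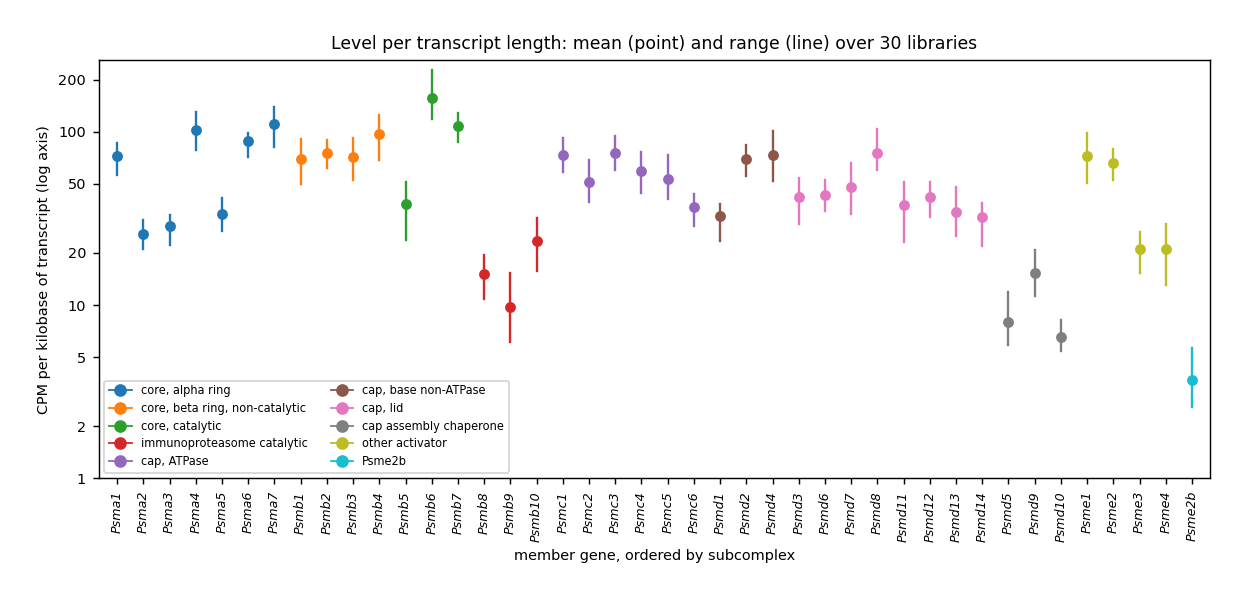
Level of each of the 42 member genes per transcript length, in CPM per kilobase on a log axis, with the mean over the 30 libraries as a point and the range over them as a line, coloured by subcomplex. The catalytic subunit Psmb6 stands highest at 156 and the immunoproteasome subunit Psmb9, the chaperones Psmd5 and Psmd10 and the copy Psme2b lie lowest, at 9.75 CPM per kilobase or less.

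Some members lie next to each other in the mouse genome (GRCm38). Psme1 is at chr14:55578123-55581529 on the plus strand and Psme2 at chr14:55587441-55591113 on the minus strand. Psmb8 lies at chr17:34197721-34201454 on the plus strand and Psmb9 at chr17:34181987-34187764 on the minus strand, within the major histocompatibility complex and beside the peptide transporter genes Tap1 and Tap2. In 3 members, exon bases are shared with another annotated gene on the same strand (Psmb5 with Mir686, Psmd1 with Gm21972 and Psme2b with 9930111J21Rik1), where a read from the shared bases fits both genes. For 11 members the overlap was with a gene on the opposite strand, which the strand-specific counting keeps apart.

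NRF2 and NRF1 bind the antioxidant response element, searched here as TGACNNNGC on both strands in the RefSeq promoter windows (GRCm38.p6, 250 bases before to 50 after the transcript start). A window was given for 36 of the 42 members, and 6 of them (16.7%) held a match, against 14% of 27025 genes with a window. The matches were in Psmb5, Psmb6, Psmd9, Psmc6, Psmd12 and Psme4. A match of these letters is a description and not a site. The 4 stretches below, upstream of the RefSeq transcript start, are printed because the results turn on these genes. The genes are Psmd5 and Psme1, which were called after CDDO-Me in wild-type livers, and the constitutive catalytic subunits Psmb5 and Psmb6. For Psmd5 and Psme1 the stretch lies inside the annotated gene, which spans chr2:34849734-34874968 and chr14:55578123-55581529. All 4 run 5′ to 3′ on the gene's strand, leave out annotated exons, and carry the match in capitals where there is one.
Psmd5, chr2:34870963-34871107, minus strand: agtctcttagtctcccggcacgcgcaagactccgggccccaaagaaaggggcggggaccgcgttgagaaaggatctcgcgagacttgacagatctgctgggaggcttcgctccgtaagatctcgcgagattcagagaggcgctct
Psme1, chr14:55578249-55578359, plus strand: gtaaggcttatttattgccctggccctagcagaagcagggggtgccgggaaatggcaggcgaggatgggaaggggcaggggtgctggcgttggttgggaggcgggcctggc
Psmb5, chr14:54618023-54618245, minus strand: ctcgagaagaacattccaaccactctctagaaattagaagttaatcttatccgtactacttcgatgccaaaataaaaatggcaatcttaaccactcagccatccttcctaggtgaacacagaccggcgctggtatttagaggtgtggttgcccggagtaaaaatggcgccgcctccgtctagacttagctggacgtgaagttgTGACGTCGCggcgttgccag
Psmb6, chr11:70525107-70525356, plus strand: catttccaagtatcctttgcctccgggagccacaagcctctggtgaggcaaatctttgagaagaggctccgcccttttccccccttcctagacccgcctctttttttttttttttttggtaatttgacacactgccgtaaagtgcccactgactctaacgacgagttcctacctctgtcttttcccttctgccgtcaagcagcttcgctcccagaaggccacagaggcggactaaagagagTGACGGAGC

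The Psmb5 match lies at −47 to −39 from the transcript start and that of Psmb6 at −9 to −1, both on the gene's own strand. Neither printed stretch of Psmd5 or Psme1 holds these letters, and no match was found in the rest of their windows either. The windows of these genes do not reach the outer start of the annotated gene, and the sequence there was not searched.

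Summed over the 42 members, the wild-type vehicle libraries held 3415 to 3879 CPM. The C151S vehicle libraries held 2782 to 3295 CPM and the Nrf2-knockout vehicle libraries 2645 to 3329 CPM, both below every wild-type vehicle library. After CDDO-Me the sums were 3557 to 3925 CPM in wild-type, 3113 to 3953 in C151S and 3129 to 3683 in Nrf2-knockout livers, so the 3 genotypes overlapped. As a share of all gene counts, without TMM scaling, the members took 0.279% to 0.375% over the 30 libraries. After vehicle this share was 0.341% to 0.364% in wild-type, 0.279% to 0.322% in C151S and 0.289% to 0.352% in Nrf2-knockout libraries. By this measure the Nrf2-knockout and wild-type vehicle groups overlapped. After CDDO-Me it was 0.344% to 0.366%, 0.292% to 0.348% and 0.341% to 0.375% in the same order. In whole tissue, a lower level from fewer cells of a type and one from less RNA per cell cannot be told apart.

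The median coefficient of variation of a member over the 5 libraries of a group was 6.92% in wild-type CDDO-Me, 7.44% in wild-type vehicle and 12.2% in C151S CDDO-Me. Single libraries were often the extreme: replicate 2 of the wild-type vehicle group was the highest of its group for 29 of the 42 members, and replicate 1 of the C151S CDDO-Me group also for 29, with the lowest sum of hepatocyte markers of all 30 libraries, 63997 CPM. Replicate 3 of the Nrf2-knockout vehicle group was the lowest of its group for 27 members, as was replicate 5 of the Nrf2-knockout CDDO-Me group. The part of hepatocyte content in these values was not tested.

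**Figure D2:**
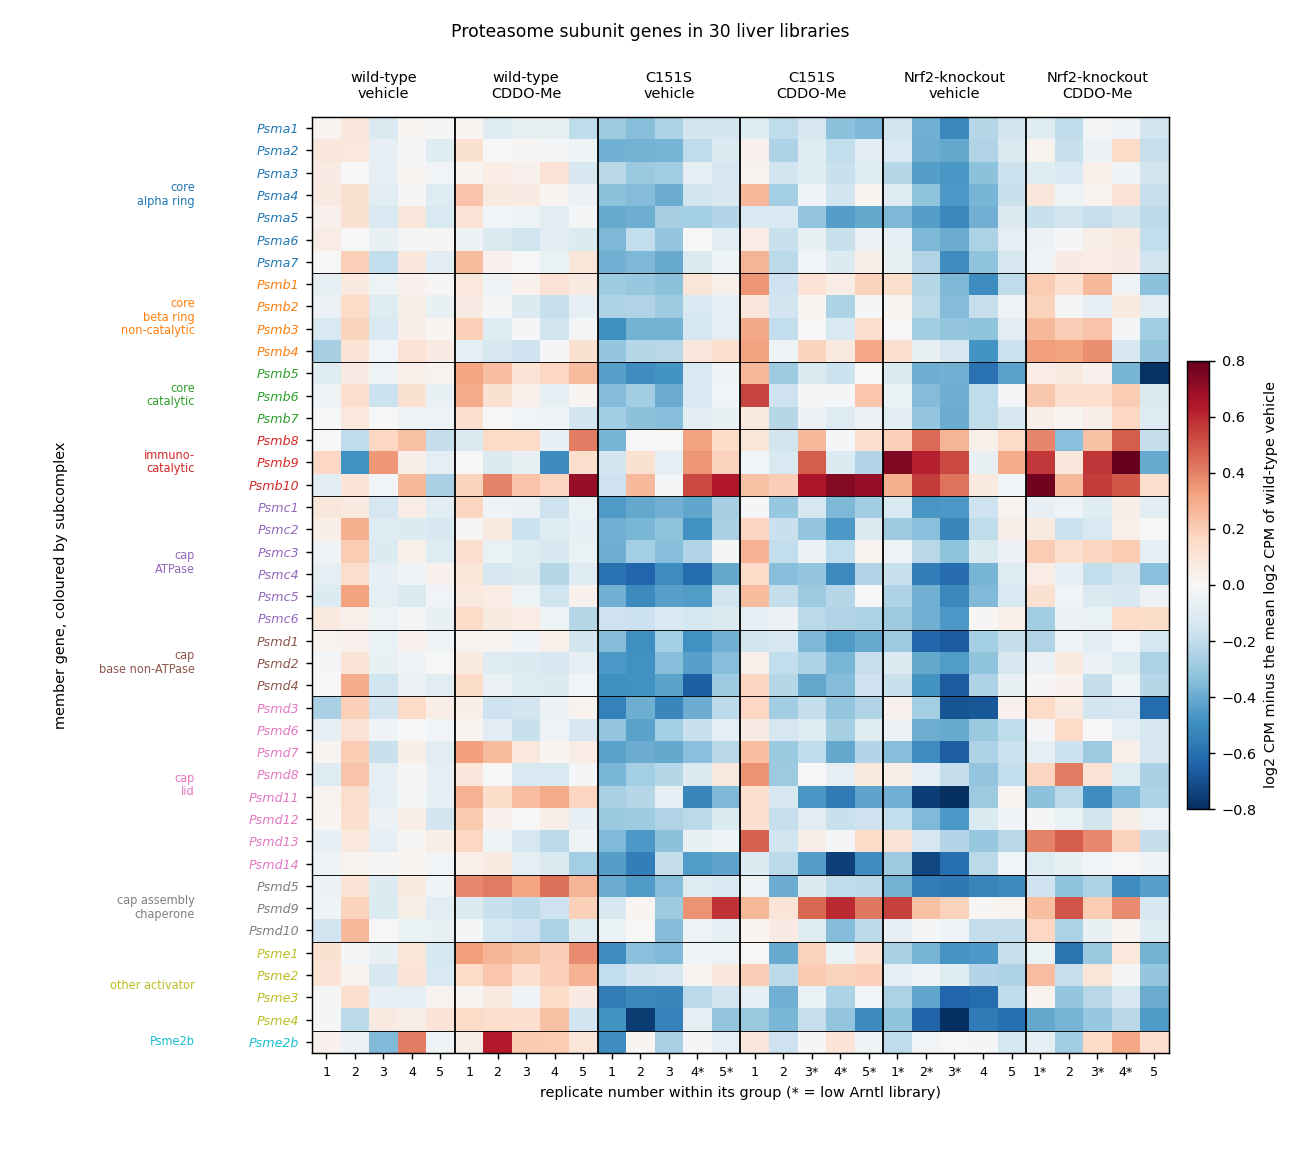
Each of the 42 members in each of the 30 libraries, as log2 CPM minus that gene's mean log2 CPM in the wild-type vehicle group (blue lower, red higher), with libraries as columns in 6 groups of 5 and a star on the 11 low-Arntl libraries. Most rows are blue across the C151S and Nrf2-knockout vehicle groups, while Psmb8, Psmb9, Psmb10 and Psmd9 are red in many mutant libraries, mostly the starred ones.

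In wild-type livers, CDDO-Me raised 2 of the 42 members, and the median member had a fold change near that of all genes. The called members were Psmd5, a chaperone that holds ATPases of the base during assembly, and Psme1, one of the 2 chains of the interferon-inducible activator ring. A member was called where edgeR's quasi-likelihood test gave a Benjamini-Hochberg adjusted p under 0.05 over all genes tested. By this rule 4.23% of all genes were called in this comparison and 2.65% of all genes were called higher, and the members' 2 of 42 is near that background. The median log2 fold change of the 42 members was −0.02 and that of all genes −0.01, and 19 members were above 0.

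Psmd5 measured 37.2, 41.3, 35.6, 40.6 and 37.6 CPM in the wild-type vehicle libraries and 50.2, 51.1, 47.9, 52.1 and 46.4 CPM after CDDO-Me. Every treated library stood above every vehicle library, and the log2 fold change was 0.36 (adjusted p = 0.00608, SE 0.06). It remained called in each of the 10 fits that left out 1 library. Psme1 measured 91.8, 83.6, 81.1, 90.3 and 76.7 CPM after vehicle and 106, 102, 99.4, 96.7 and 110 CPM after CDDO-Me, again without overlap. Its log2 fold change was 0.27 (adjusted p = 0.0392, SE 0.07), and it was called in only 3 of the 10 fits without a library, with an adjusted p of up to 0.112 in the others. Its partner Psme2 averaged 63.1 ± 5.16 CPM (SD, n = 5) after vehicle and 72.04 ± 2.89 after CDDO-Me, a log2 fold change of 0.18 (adjusted p = 0.157, SE 0.07).

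The groups did not overlap for 5 members in all, Psmd5, Psme1, Psme2, Psmd11 and Psmb5, each higher after CDDO-Me, against 3.38% of all genes that did so in this direction. Psmb5 measured 34.5, 38.8, 36.03, 38.1 and 37.7 CPM after vehicle and 45.95, 43.6, 40.004, 41.5 and 44.1 after CDDO-Me, a log2 fold change of 0.21 (adjusted p = 0.0770, SE 0.06). Psmd11, a scaffold of the lid, averaged 120 ± 7.71 CPM after vehicle and 140 ± 6.35 after CDDO-Me (SD, n = 5), a log2 fold change of 0.22 (adjusted p = 0.0759, SE 0.06). Both were called by DESeq2, which called 4 members here and 7.54% of all genes. The other catalytic subunits gave log2 fold changes of 0.08 (adjusted p = 0.724, SE 0.08) for Psmb6 and -0.02 (adjusted p = 0.917, SE 0.06) for Psmb7.

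No other member was called in wild-type livers by edgeR with TMM scaling. The 6 ATPases had log2 fold changes between −0.10 and 0.00, the 3 other base subunits between −0.07 and −0.02, the 7 alpha-ring subunits between −0.11 and 0.06 and the 4 non-catalytic beta subunits between −0.07 and 0.05. Over the 8 lid subunits the range was −0.09 to 0.22, with Psmd11 the highest. Of the 5 hepatocyte markers, Cps1 and Ttr were called lower after CDDO-Me, the list's summed level being 92060 to 113002 CPM after vehicle and 75985 to 98640 CPM after CDDO-Me, and their part in the members' values was not tested. In the same comparison, 8 of the 10 NRF2 targets of a fixed list (among them Cbr3, Gstm1 and Ugdh) were called higher, with a median log2 fold change of 1.45. Nfe2l1 had a log2 fold change of 0.24 (adjusted p = 0.138, SE 0.08), Keap1 of 0.31 (adjusted p = 0.0964, SE 0.10), and Nfe2l2 fell, with -0.31 (adjusted p = 0.0298, SE 0.07).

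In the mutant livers no member was called after CDDO-Me, although nearly all estimates were above 0. In C151S livers, 39 of the 42 members had a positive log2 fold change, with a median of 0.19 beside −0.01 for all genes. The lowest adjusted p by edgeR's quasi-likelihood test was 0.351, for Psmb3, Psmd13 and Psmb6 among others, while 12 members, all higher, had an unadjusted p under 0.05, and DESeq2 called none. By the called rule 0.092% of all genes were called, and 13.7% of all genes had an unadjusted p under 0.05, those that were higher making up 7.21% of all genes. Without replicate 1 of the C151S CDDO-Me group, the library with the low hepatocyte markers, the members' median log2 fold change was 0.11, and it reached 0.21 at most in the fits without another library. The cell type markers had median log2 fold changes of −0.24 for hepatocytes, −0.16 for leukocytes and −0.15 for macrophages in this comparison, with none called by edgeR, and the hepatocyte markers summed to 110974 to 132849 CPM after vehicle and 63997 to 148052 CPM after CDDO-Me. Their part in the members' shift was not tested.

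Psmb6 illustrates these estimates. It measured 98.1, 103, 94.5, 114 and 123 CPM in the C151S vehicle libraries and 181, 111, 124, 123 and 145 CPM after CDDO-Me, so the groups overlapped and 1 treated library stood well above the rest. Its log2 fold change was 0.36 (adjusted p = 0.351, SE 0.13). The members called in wild-type livers gave log2 fold changes of 0.08 (adjusted p = 0.702, SE 0.09) for Psmd5 and 0.21 (adjusted p = 0.445, SE 0.12) for Psme1 in C151S livers. No member was without overlap between the C151S groups, against 2.14% of all genes.

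In Nrf2-knockout livers, 40 of the 42 members had a positive log2 fold change after CDDO-Me, with a median of 0.20 beside −0.01 for all genes. None was called, at a lowest adjusted p of 0.547 by edgeR's quasi-likelihood test, 13 members had an unadjusted p under 0.05, all higher, and DESeq2 called none. No gene of the whole table (0%) was called, and 7.85% had an unadjusted p under 0.05, those that were higher making up 3.82% of all genes. The 2 members below 0 were the immunoproteasome subunits Psmb8 and Psmb9. Cell type markers had medians below 0 in this comparison, −0.29 for hepatocytes, −0.41 for leukocytes and −0.43 for macrophages on the log2 scale, with none called by edgeR. The hepatocyte markers summed to 109087 to 123579 CPM after vehicle and 73024 to 109867 CPM after CDDO-Me, the leukocyte markers to 106 to 238 and 86.5 to 199.9 CPM and the macrophage markers to 126 to 302 and 86.5 to 233 CPM, and their part in the members' shift was not tested. Psma3, an alpha-ring subunit, was the 1 member whose groups did not overlap, against 1.06% of all genes in that direction: it measured 74.5, 64.2, 63.2, 69.6 and 77.5 CPM after vehicle and 81.4, 80.3, 89.7, 84.98 and 78.6 CPM after CDDO-Me, a log2 fold change of 0.24 (adjusted p = 0.575, SE 0.09). Psmd5 had 0.17 (adjusted p = 0.660, SE 0.08) and Psme1 0.11 (adjusted p = 0.851, SE 0.13) on the same log2 scale.

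The low-Arntl and high-Arntl libraries gave unlike medians. Within the high-Arntl C151S libraries the median of the members' log2 differences, CDDO-Me minus vehicle, was 0.27, with 41 members higher, and within the low-Arntl ones it was 0.03, with 27 higher. In Nrf2-knockout livers the order was the other way, 0.07 with 35 members higher in the high-Arntl libraries and 0.30 with 41 higher in the low-Arntl ones. Each of these sets held 2 or 3 libraries per treatment, so they are given as values and were not tested. The treated high-Arntl C151S libraries were replicates 1 and 2, and replicate 1 had the lowest hepatocyte markers of all 30 libraries. The members' mean log2 CPM, less its mean over all libraries, was 0.21 in replicate 1 and −0.10 in replicate 2. The high-Arntl C151S vehicle libraries had −0.27 to −0.22. Values of all genes were not computed within these sets.

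**Figure D3:**
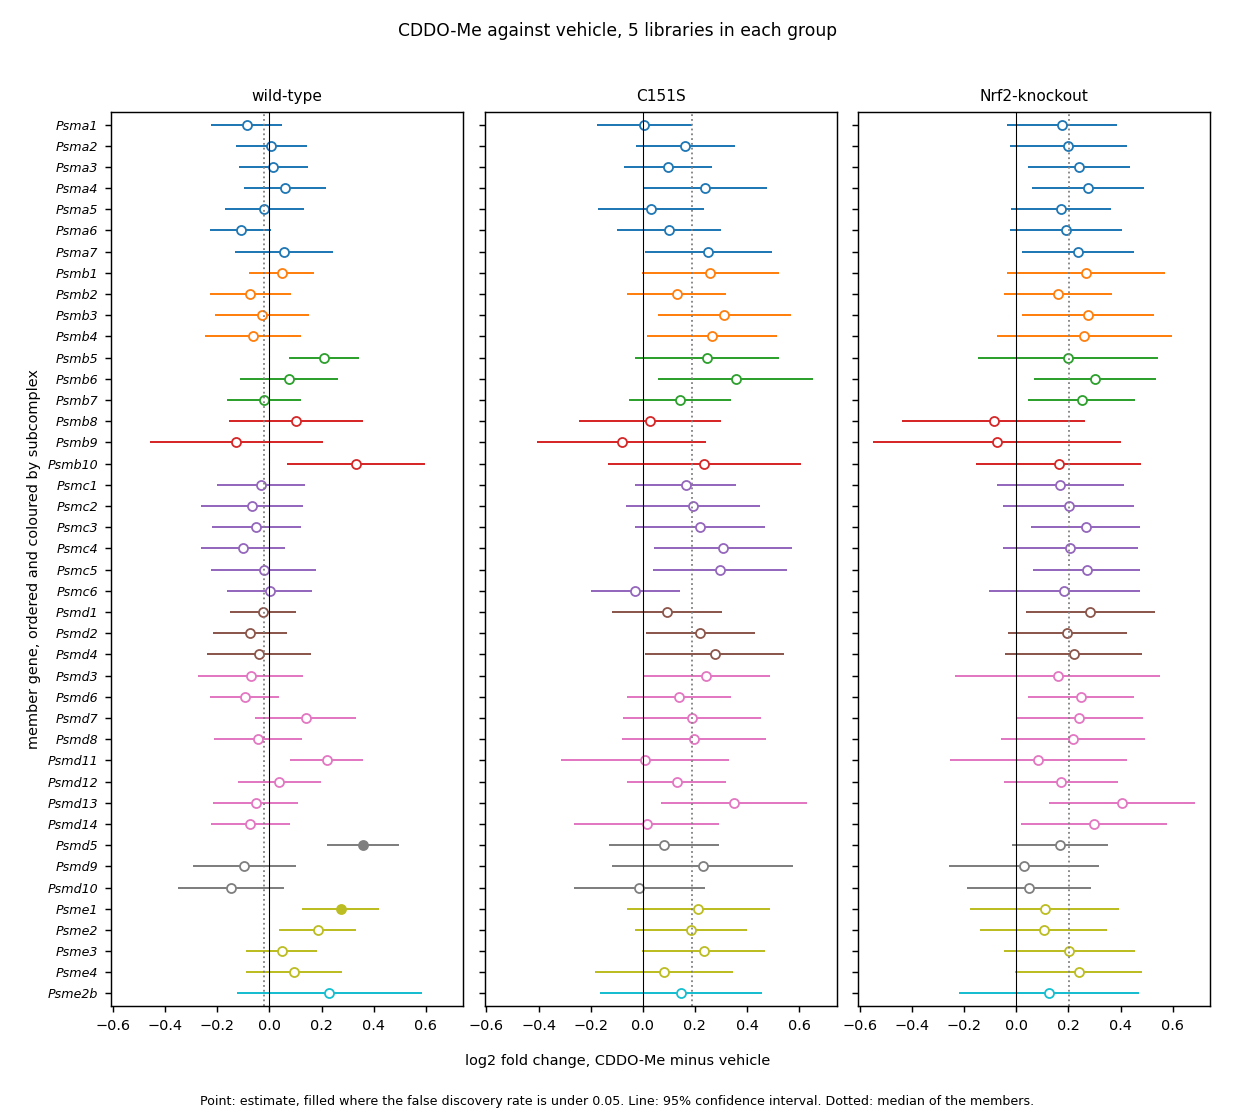
Log2 fold change of each member, CDDO-Me minus vehicle, in wild-type, C151S and Nrf2-knockout livers (5 libraries per group), with the 95% confidence interval as a line, filled points for an adjusted p under 0.05 and a dotted line at the members' median. The wild-type points scatter around a median of −0.02 with Psmd5 and Psme1 filled, and the mutant points lie mostly to the right of 0, around 0.19 and 0.20, with none filled.

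Whether the genotypes responded differently was tested as the difference between their responses in 1 fit of all 30 libraries. The wild-type response minus the C151S response was negative for 34 members, with a median of −0.17 on the log2 scale, and no member was called by edgeR's quasi-likelihood test or by DESeq2, where 0.48% of all genes were. At an unadjusted p under 0.05, which 8.31% of all genes reached, there were 7 members, 6 of them with the lower response in wild-type livers. In the high-Arntl libraries alone the median was −0.29, and 20 members had an unadjusted p under 0.05 (10.2% of all genes), all with the lower wild-type response and none called. That fit held only 2 C151S CDDO-Me libraries, among them replicate 1 with the lowest hepatocyte markers. Without replicate 1, the full fit gave a median of −0.11. Of the 7 members with an unadjusted p under 0.05 in the full fit, the 1 with the higher wild-type response was Psmd5. Its wild-type response exceeded that of C151S livers by 0.28 (adjusted p = 0.508, SE 0.11) on the log2 scale. Against Nrf2-knockout livers the difference was also negative for 34 members, with a median of −0.22, no call by edgeR or DESeq2 (0.266% of all genes by edgeR) and 13 members with an unadjusted p under 0.05 (6.28% of all genes), all with the lower wild-type response. In the high-Arntl libraries alone the median was −0.08, with 29 members negative, and 5 members had an unadjusted p under 0.05 (7.06% of all genes), 3 with the higher and 2 with the lower wild-type response and none called. Each Nrf2-knockout group held 2 libraries in that fit.

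For the wild-type response minus the Nrf2-knockout response, the 95% interval was -0.04 to 0.42 for Psmd5, -0.17 to 0.49 for Psme1 and -0.37 to 0.38 for Psmb5 on the log2 scale, so these data neither show nor exclude a moderate difference in their responses. The responses of C151S and Nrf2-knockout livers had no called member by edgeR or DESeq2 and none with an unadjusted p under 0.05 (4.92% of all genes), where 0.0133% of all genes were called by edgeR. These differences share the wild-type libraries, and the vehicle libraries enter both the responses and the comparisons of genotypes that follow.

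After vehicle, wild-type livers had higher levels of proteasome transcripts than C151S livers. In all, 14 of the 42 members were called higher in wild-type and none lower, against 8.32% of all genes called and 4.75% called higher. The members' median log2 fold change, wild-type minus C151S, was 0.24 and that of all genes −0.01, and 38 members were above 0. All 3 non-ATPase base subunits and 4 of the 6 ATPases were called, with 3 of the 8 lid subunits (Psmd3, Psmd7, Psmd14), 2 of the 7 alpha subunits (Psma2, Psma5) and the activators Psme3 and Psme4. No beta subunit, catalytic or not, and no assembly chaperone was called. The log2 fold changes of the constitutive beta subunits were nevertheless all above 0, between 0.09 and 0.29. Hepatocyte markers summed to 92060 to 113002 CPM in wild-type and 110974 to 132849 CPM in C151S vehicle libraries. Reads assigned to genes were 65.9% to 74.5% and 72.3% to 78.4% of all reads in the deposited counts. The part of either in the members' differences was not tested.

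The ATPase Psmc4 had the lowest p. It measured 93.8, 109, 94.7, 97.3 and 101 CPM in the wild-type vehicle libraries and 65.7, 63.8, 70.3, 64.8 and 74.7 CPM in the C151S vehicle libraries. The groups were well apart, with a log2 fold change of 0.54 (adjusted p = 0.00238, SE 0.07). Next came Psmd2, the large base scaffold that docks shuttle factors carrying ubiquitinated substrates, at 228, 248, 221, 225 and 231 CPM in wild-type and 167, 165, 182, 170 and 182 CPM in C151S libraries. Its groups did not overlap either, and its log2 fold change was 0.40 (adjusted p = 0.00537, SE 0.07).

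Psmd1, the other large base scaffold, averaged 116 ± 3.41 CPM in wild-type and 88.2 ± 5.68 in C151S livers (SD, n = 5), a log2 fold change of 0.38 (adjusted p = 0.00733, SE 0.07). The ATPase Psmc1 averaged 130 ± 9.15 and 99.2 ± 4.96 CPM, a log2 fold change of 0.37 (adjusted p = 0.00987, SE 0.07). The deubiquitinase Psmd14 had 0.39 (adjusted p = 0.0107, SE 0.07) and the ubiquitin receptor Psmd4 0.46 (adjusted p = 0.0183, SE 0.10) on the same log2 scale. These 6 members stayed called in each of the 10 fits without a library, and the other 8 in 2 to 6 of them. The groups did not overlap for 18 members, each higher in wild-type, against 5.65% of all genes.

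The count depended on which libraries entered. It was 6 without replicate 1 or replicate 2 of the C151S vehicle group and 8 without replicate 3, all high in Arntl, 7 without replicate 1 or 4 and 8 without replicate 5 of the wild-type group, and 18 without replicate 4 or replicate 5, the 2 low-Arntl libraries. In the high-Arntl libraries alone, 5 wild-type and 3 C151S, 31 members were called higher and none lower, where 25.8% of all genes were called, and the median log2 fold change was 0.32. Psmb5 then had a log2 fold change of 0.44 (adjusted p = 0.00187 by edgeR), beside 0.29 (adjusted p = 0.0803, SE 0.09) over all 10 libraries. The cause of the change was not tested.

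Nrf2-knockout livers after vehicle also had lower levels of proteasome transcripts than wild-type livers. Here 13 members were called higher in wild-type and none lower, against 16.4% of all genes called and 8.07% called higher, and the median log2 fold change, wild-type minus Nrf2-knockout, was 0.23 beside −0.01 for all genes. The calls comprised 4 alpha subunits (Psma1, Psma3, Psma4, Psma5), the catalytic Psmb5, the ATPase Psmc4, the base scaffold Psmd1, the lid subunits Psmd6 and Psmd7, the chaperone Psmd5 and the activators Psme1, Psme3 and Psme4. With upper-quartile scaling the split was 4 higher and 2 lower, the lower ones Psmd9 and Psmb9. Without replicate 3 of the Nrf2-knockout vehicle group the count was 4, without replicate 2 it was 5, without replicate 5 it was 18, without any 1 of the wild-type libraries it was 5 to 8, and in the high-Arntl libraries alone, with 2 of the Nrf2-knockout group, it was 3 (Psme4, Psmb5 and Psmd5), where 9.31% of all genes were called and the members' median log2 fold change was 0.18.

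Psmd5 measured 29.5, 26.1, 25.8, 26.6 and 26.9 CPM in the Nrf2-knockout vehicle libraries, all below the wild-type values of 35.6 to 41.3 CPM. The log2 fold change, wild-type minus Nrf2-knockout, was 0.49 (adjusted p = 0.00144, SE 0.07). Psme4, the large single-chain activator of the nucleus, measured 159, 139, 169, 167 and 173 CPM in wild-type and 129, 103, 84.98, 109 and 106 CPM in Nrf2-knockout libraries, without overlap. Its log2 fold change of 0.59 (adjusted p = 0.00454, SE 0.10) was the largest of the members in this comparison. Psmb5 measured 34.2, 28.2, 28.3, 24.5 and 27.5 CPM in the Nrf2-knockout libraries, also below all wild-type ones.

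The log2 fold change of Psmb5 was 0.36 (adjusted p = 0.0154, SE 0.08) and that of Psme3, the nuclear activator ring, 0.40 (adjusted p = 0.0152, SE 0.09). Psme1 had 0.33 (adjusted p = 0.0182, SE 0.08) and Psma3 0.30 (adjusted p = 0.0187, SE 0.07) on the same scale. Psmd5, Psme4, Psme3 and Psmb5 stayed called in each of the 10 fits without a library, and Psme1 and Psma3 in 8. The groups did not overlap for 15 members, each higher in wild-type, against 7.19% of all genes. Leukocyte markers moved the opposite way in this comparison, with 3 of 9 (Coro1a, H2-Aa and H2-Ab1) called lower in wild-type. Their summed levels were 88.1 to 165 CPM in wild-type and 106 to 238 CPM in Nrf2-knockout libraries. Hepatocyte markers summed to 92060 to 113002 and 109087 to 123579 CPM. Reads assigned to genes were 65.9% to 74.5% and 76.0% to 80.2% of all reads in the deposited counts, without overlap. The part of these in the members' differences was not tested.

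The 2 comparisons use the same 5 wild-type vehicle libraries, so their calls are not independent. Set directly against each other after vehicle, C151S and Nrf2-knockout livers had no called member by edgeR's quasi-likelihood test or by DESeq2 and 2 with an unadjusted p under 0.05 (11.3% of all genes), Psmd5 and Psmb9, where 0.356% of all genes were called by edgeR. Psmd5 was 0.23 (adjusted p = 0.363, SE 0.09) on the log2 scale, C151S minus Nrf2-knockout, and Psmc4 -0.20 (adjusted p = 0.509, SE 0.11). No member was without overlap, against 2.74% of all genes.

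**Figure D4:**
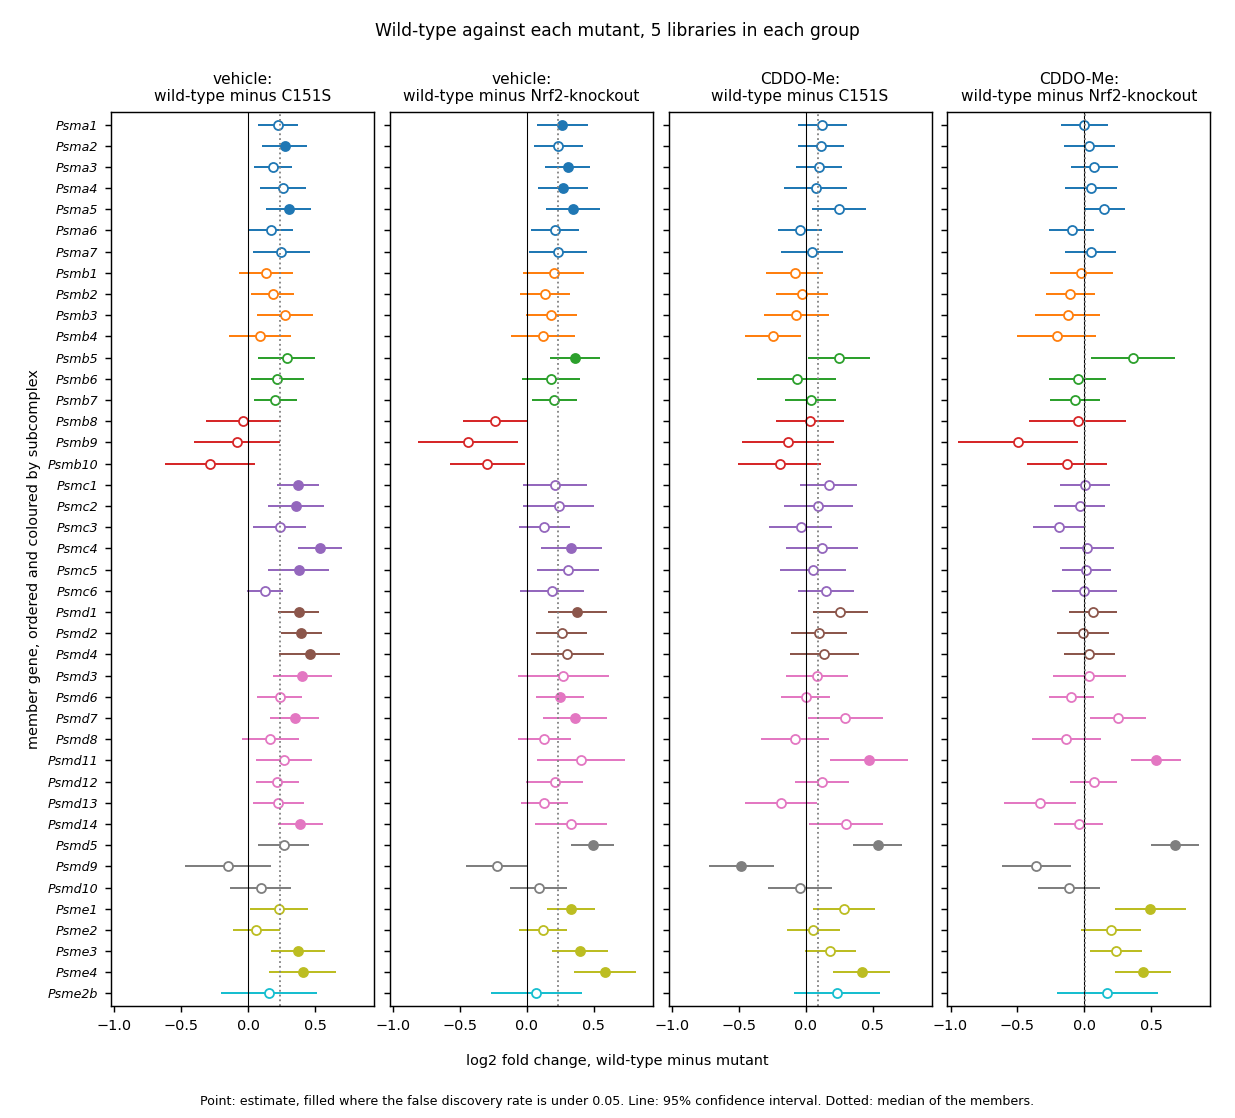
Log2 fold change of each member, wild-type minus C151S and wild-type minus Nrf2-knockout, after vehicle and after CDDO-Me (5 libraries per group), with 95% confidence intervals, filled points for an adjusted p under 0.05 and a dotted line at the members' median. After vehicle most points lie right of 0 around medians of 0.24 and 0.23, and after CDDO-Me the medians are 0.09 and 0.00 with Psmd5, Psmd11 and Psme4 filled in both panels.

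After CDDO-Me a few members were called between wild-type and mutant livers. Against C151S livers, 3 members were called higher in wild-type and 1 lower, where 6.78% of all genes were called and 3.79% called higher, and the median log2 fold change was 0.09 beside −0.03 for all genes. Against Nrf2-knockout livers, 4 were called higher and none lower, where 12.6% of all genes were called and 6.79% called higher, and the median was 0.00 beside −0.03. With upper-quartile scaling and with DESeq2 the second split was 4 higher and 1 lower, the lower one Psmd9. With 4 of 42 members called in each comparison, their share was not tested against that of all genes. Both comparisons use the same wild-type CDDO-Me libraries. Without replicate 5 of the Nrf2-knockout group the second count was 7.

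Psmd5 was called in both. After CDDO-Me it measured 37.2, 29.1, 35.6, 33.4 and 33.1 CPM in C151S livers and 34.2, 30.7, 32.3, 27.2 and 28.4 CPM in Nrf2-knockout livers, below the 46.4 to 52.1 CPM of the wild-type libraries. The log2 fold change, wild-type minus mutant, was 0.54 (adjusted p = 0.00269, SE 0.08) against C151S and 0.68 (adjusted p = 0.000227, SE 0.08) against Nrf2-knockout livers, and it stayed called in all 10 fits without a library in each comparison. Psmd11, the lid scaffold, measured 145, 132, 142, 147 and 135 CPM in wild-type, 131, 109, 86.7, 80.9 and 89.3 CPM in C151S and 95.5, 103, 84.8, 93.6 and 101 CPM in Nrf2-knockout libraries. Every wild-type library was above every mutant library, though by a narrow margin over replicate 1 of the C151S group. Its log2 fold changes were 0.48 (adjusted p = 0.0496, SE 0.13) and 0.53 (adjusted p = 0.00132, SE 0.08), the first called in 2 of the 10 fits without a library and the second in all 10.

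Psme4 was called in both comparisons too, with 173 ± 16.9 CPM in wild-type, 128 ± 10.3 in C151S and 126 ± 8.15 in Nrf2-knockout livers (SD, n = 5). Its log2 fold changes were 0.42 (adjusted p = 0.0246, SE 0.09) against C151S, called in 4 of the 10 fits without a library, and 0.44 (adjusted p = 0.0100, SE 0.09) against Nrf2-knockout livers, called in all 10. Psme1 measured 81.6, 56.4, 68.7, 89.4 and 64.98 CPM in Nrf2-knockout livers after CDDO-Me, all below the wild-type range of 96.7 to 110 CPM. Its log2 fold change, wild-type minus Nrf2-knockout, was 0.49 (adjusted p = 0.0185, SE 0.12), called in all 10 fits without a library, and against C151S livers it was 0.29 (adjusted p = 0.113, SE 0.10).

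The chaperone Psmd9 went the other way. It measured 33.2, 31.6, 30.97, 31.9 and 40.9 CPM in wild-type and 43.01, 38.4, 49.2, 54.02 and 47.9 CPM in C151S livers after CDDO-Me, with overlap between the groups. The log2 fold change, wild-type minus C151S, was -0.48 (adjusted p = 0.0229, SE 0.11) and was called in 3 of the 10 fits without a library. Against Nrf2-knockout livers it was -0.36 (adjusted p = 0.0634, SE 0.12). In C151S livers Psmd9 ran opposite to Arntl. After CDDO-Me it stood at 47.9 to 54.02 CPM in the low-Arntl libraries and 38.4 to 43.01 CPM in the high-Arntl ones, and after vehicle at 45.8 to 53.4 and 29.3 to 36.2 CPM. This was seen in the data and was not tested. In the high-Arntl libraries alone, with 2 of each mutant group, Psmd5 was the 1 member called against C151S livers after CDDO-Me, where 2.05% of all genes were called and the members' median log2 fold change was 0.04. Against Nrf2-knockout livers Psmd5, Psme1, Psmd11, Psme4, Psme2 and Psme3 were called in that fit, where 7.86% of all genes were called and the median was 0.06.

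The groups did not overlap for 5 members against C151S livers (5% of all genes) and for 6 against Nrf2-knockout livers (6.67%), each higher in wild-type. Psmd5, Psme1, Psme4, Psmd11 and Psma5 were in both sets and Psmb5 in the second. Set against each other after CDDO-Me, C151S and Nrf2-knockout livers had no called member by edgeR's quasi-likelihood test or by DESeq2 and 1 with an unadjusted p under 0.05 (7.82% of all genes), where 0.162% of all genes were called by edgeR. That member was Psmd14, at 52.5, 48.7, 41.8, 33.7 and 40.1 CPM in C151S and 52.8, 54.3, 55.7, 56.7 and 55.5 CPM in Nrf2-knockout libraries. Its groups did not overlap, against 0.888% of all genes in that direction, and its log2 fold change, C151S minus Nrf2-knockout, was -0.34 (adjusted p = 0.463, SE 0.12).

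**Figure D5:**
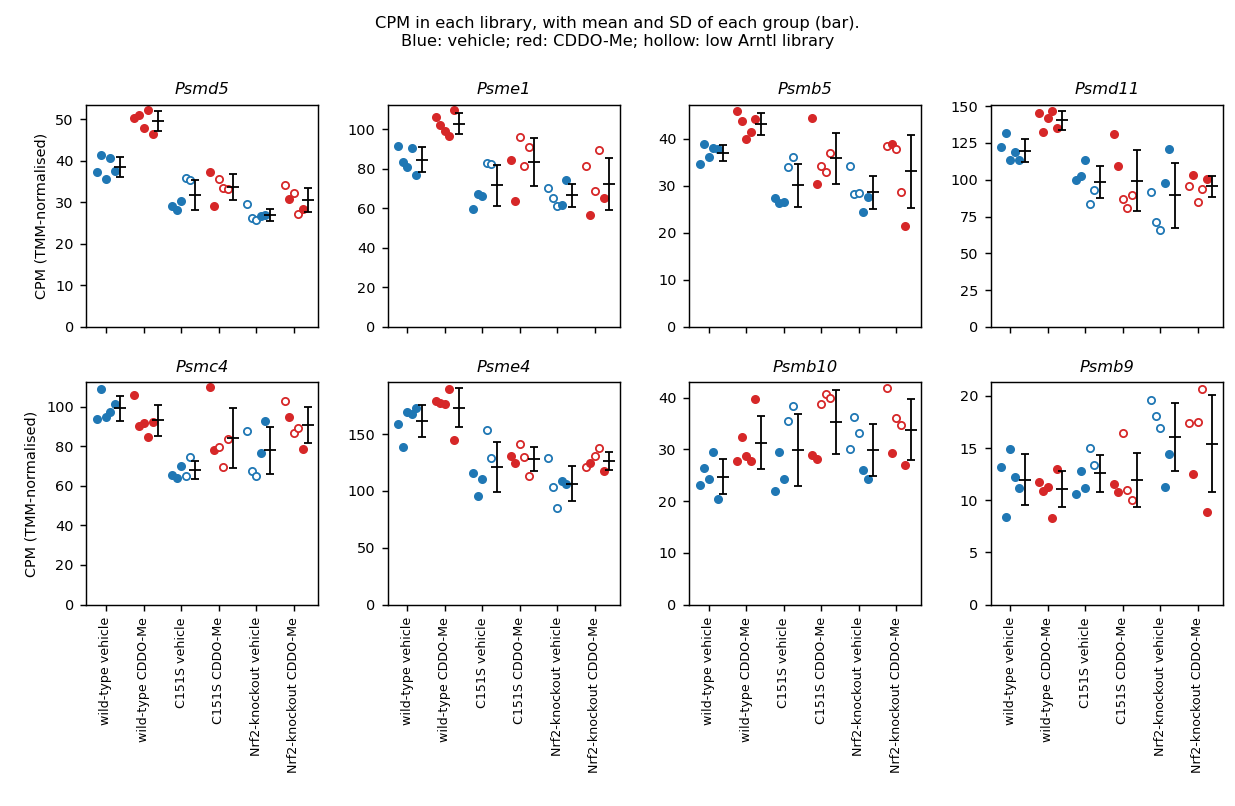
CPM of 8 members in each library of the 6 groups (blue vehicle, red CDDO-Me, hollow for a low-Arntl library), with the mean and SD of each group as a bar and every axis starting at 0. Psmd5 and Psmd11 stand higher in all 5 wild-type CDDO-Me libraries than in any mutant library, and the hollow points of Psmb10 lie above the filled ones of the same mutant group.

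The catalytic subunits of the core are the members on which proteolysis rests. Over the 6 groups Psmb5 averaged 37.02 ± 1.72 CPM in wild-type vehicle, 43.03 ± 2.33 in wild-type CDDO-Me, 30.1 ± 4.65 in C151S vehicle, 35.8 ± 5.40 in C151S CDDO-Me, 28.6 ± 3.54 in Nrf2-knockout vehicle and 33.1 ± 7.76 in Nrf2-knockout CDDO-Me livers (SD, n = 5). Psmb6 ran from 107 ± 11.8 CPM in C151S vehicle to 137 ± 27.6 in C151S CDDO-Me livers, with 125 ± 11.3 in wild-type vehicle, and was called in no comparison by edgeR with TMM scaling over all libraries. Psmb7 averaged 133 ± 4.74 CPM in wild-type, 114 ± 10.8 in C151S and 114 ± 9.75 in Nrf2-knockout livers after vehicle. Neither mutant vehicle group overlapped with the wild-type one for Psmb7, but the log2 fold changes of 0.20 (adjusted p = 0.0956, SE 0.07) and 0.20 (adjusted p = 0.0791, SE 0.07) were not called. DESeq2 called the second, with an adjusted p of 0.0400, and in the high-Arntl libraries alone both Psmb6 and Psmb7 were called against C151S livers, at log2 fold changes of 0.32 and 0.29 (adjusted p = 0.0227 and 0.0109 by edgeR).

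The immunoproteasome subunits were, with Psmd9, the members whose estimates after vehicle were not lower in the mutants. After vehicle all 3 had log2 fold changes, wild-type minus mutant, below 0, with -0.24 (adjusted p = 0.146, SE 0.11) for Psmb8, -0.44 (adjusted p = 0.0885, SE 0.17) for Psmb9 and -0.29 (adjusted p = 0.127, SE 0.13) for Psmb10 against Nrf2-knockout livers. Against C151S livers the values were -0.04 (adjusted p = 0.879, SE 0.13), -0.08 (adjusted p = 0.746, SE 0.14) and -0.28 (adjusted p = 0.253, SE 0.15) in the same order. None was called by edgeR with TMM scaling, and the groups overlapped. With upper-quartile scaling Psmb9 was called against Nrf2-knockout livers, at a log2 fold change of −0.52 (adjusted p = 0.0438). Psmb9 measured 13.2, 8.41, 14.96, 12.2 and 11.2 CPM in the wild-type vehicle libraries and 19.6, 18.1, 16.96, 11.3 and 14.5 CPM in the Nrf2-knockout vehicle libraries, the widest relative spread of any member in the wild-type vehicle group (20.3%). CDDO-Me called none of the 3 in any genotype, the largest estimate being the 0.33 (adjusted p = 0.161, SE 0.12) of Psmb10 in wild-type livers.

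Psmb10 divided the mutant libraries as Arntl did. After vehicle it stood at 35.4 to 38.3 CPM in the low-Arntl and 21.8 to 29.4 CPM in the high-Arntl C151S libraries, and after CDDO-Me at 38.7 to 40.8 and 28.1 to 28.8 CPM. In Nrf2-knockout livers the ranges were 30.1 to 36.2 and 24.2 to 25.9 CPM after vehicle and 34.6 to 41.9 and 26.9 to 29.3 CPM after CDDO-Me. The low-Arntl libraries were thus higher without overlap in all 4 mutant groups, each of 2 or 3 libraries a side. Psmd11 ran the other way without overlap in the same 4 groups, at 83.5 to 93.2 against 99.9 to 113 CPM in C151S vehicle and 65.9 to 91.7 against 97.98 to 121 CPM in Nrf2-knockout vehicle libraries. Psmb10 and Psmd11 were singled out here because the division was seen in their values. The share of all genes that divided in this way was not counted. The division was not tested, and the wild-type libraries all belonged to the high-Arntl set.

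All 4 activators had log2 fold changes above 0 in each of the 9 comparisons of 2 groups, taken as CDDO-Me minus vehicle, wild-type minus mutant and C151S minus Nrf2-knockout. Psme1 averaged 84.7 ± 6.32 CPM in wild-type vehicle and 103 ± 5.23 in wild-type CDDO-Me livers, against 71.6 ± 10.4 and 83.4 ± 12.2 in C151S and 66.5 ± 5.80 and 72.2 ± 13.2 in Nrf2-knockout livers (SD, n = 5). Psme2, its partner in the ring, was called in no comparison by edgeR with TMM scaling over all libraries, with log2 fold changes, wild-type minus mutant, of 0.06 and 0.12 after vehicle. Against Nrf2-knockout livers after CDDO-Me its log2 fold change was 0.20 (adjusted p = 0.217, SE 0.10), and in the high-Arntl libraries alone it was 0.42 (adjusted p = 0.0338 by edgeR). Psme3 and Psme4 were called lower in both mutants after vehicle and gave log2 fold changes of 0.05 (adjusted p = 0.771, SE 0.06) and 0.09 (adjusted p = 0.635, SE 0.08) after CDDO-Me in wild-type livers.

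Genes that serve the proteasome from outside the particle were examined as 3 lists. Of 22 measured assembly factors, receptors and shuttles, none was called after CDDO-Me in any genotype by edgeR. After vehicle 5 were called higher in wild-type than in C151S and 9 higher than in Nrf2-knockout livers, none lower, against 4.75% and 8.07% of all genes called higher, with median log2 fold changes of 0.15 and 0.23. The substrate shuttles Rad23b and Ubqln1 had log2 fold changes of 0.32 (adjusted p = 0.0123, SE 0.06) and 0.34 (adjusted p = 0.0168, SE 0.07) against C151S livers, and the cap's ubiquitin receptor Adrm1 had 0.51 (adjusted p = 0.0266, SE 0.12). Against Nrf2-knockout livers the cap-associated thioredoxin-like protein Txnl1 had 0.52 (adjusted p = 0.00425, SE 0.09) and Akirin2, which brings proteasomes into the nucleus, 0.38 (adjusted p = 0.0144, SE 0.09). After CDDO-Me 3 of the 22 were called higher in wild-type than in C151S livers and 6 than in Nrf2-knockout livers, against 3.79% and 6.79% of all genes. Zfand5, a protein that stimulates the particle in muscle wasting, had the lowest p against Nrf2-knockout livers, with 0.70 (adjusted p = 0.00245, SE 0.12).

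The list of genes upstream of the particle held 19 (NRF1 and NRF2, their activators and partners). After vehicle 3 of them were called higher in wild-type than in C151S livers, where 4.75% of all genes were called higher. Against Nrf2-knockout livers, where 8.07% of all genes were called higher, there were 4, and none was lower in either comparison. One of those 4 is Nfe2l2 itself, the gene deleted by design. After CDDO-Me 1 was higher against C151S livers, where 6.78% of all genes were called. Against Nrf2-knockout livers, where 12.6% of all genes were called, 5 were higher, Nfe2l2 included, and 1 lower. In wild-type livers, where 4.23% of all genes were called, CDDO-Me gave 1 call higher, Mafg, and 2 lower, Foxo3 and Nfe2l2. Nfe2l1 itself had log2 fold changes of 0.31 (adjusted p = 0.0570, SE 0.09) and 0.29 (adjusted p = 0.0869, SE 0.11) in the vehicle comparisons and was called in none of the 9 comparisons of 2 groups by edgeR with TMM scaling. Of 15 genes that supply ubiquitin, 3 were higher and 1 lower in wild-type than in C151S livers and 2 higher and 1 lower than in Nrf2-knockout livers, where 8.32% and 16.4% of all genes were called. The list of 24 genes of interferon response and antigen presentation holds the 3 immunoproteasome subunits, Psme1 and Psme2. After vehicle, where 16.4% of all genes were called, it gave 1 call higher (Psme1) and 5 lower in wild-type than in Nrf2-knockout livers. The transporter genes beside Psmb8 and Psmb9 were among them, with log2 fold changes of -0.41 (adjusted p = 0.0276, SE 0.11) for Tap1 and -0.53 (adjusted p = 0.00974, SE 0.11) for Tap2. The leukocyte markers were lower in wild-type in the same comparison, at a median log2 fold change of −0.70 with 3 of 9 called, and their part in these differences was not tested. After CDDO-Me in wild-type livers, where 4.23% of all genes were called, the interferon list gave Psme1 higher and 5 genes lower. Ifit3, Irf9 and Isg15 had the lowest p.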

How the data were processed

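RNA of 30 liver samples was sequenced as paired-end reads of stranded poly(A) libraries. The authors checked read quality with fastp, removing no reads or bases, aligned with STAR 2.7.7 to mm10 with GENCODE annotation and deposited raw counts per gene, with no normalization. Their own fits used edgeR 3.36.0 with a term for the date of isolation. Those dates were not in the labels used here, so no fit here holds such a term. Whether the low-Arntl and high-Arntl libraries differ in that date could therefore not be checked. From the deposited counts, 2 groups at a time were fitted with edgeR 4.0.16 (R 4.3.3): filterByExpr, TMM scaling, the legacy quasi-likelihood F-test and Benjamini-Hochberg adjustment over all genes tested. Differences between responses came from 1 fit of 30 libraries. The SE was taken from the F value as |log2 fold change|/√F. CPM are TMM-scaled, and levels per kilobase use the principal transcript. Scripts were tested on simulated data. Replicates are numbered in the labels and are biologic replicates per the study's methods. Replicate libraries all differed by more than sampling noise.

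Values are given for the 3 constitutive and 3 immunoproteasome catalytic subunits, Psme1 to Psme4, and in each comparison the up to 6 called members with the lowest p. Psmd5, Psmc4, Psmd9, Psmd11, Psma3 and Psmd14 are also described in comparisons where that rule did not name them, and were chosen there after their values were seen. The members and lists were chosen with earlier results of these data known. Alternatives were DESeq2 1.42.0, other scalings and filters, the study's size threshold of 0.5, a replicate block, the Arntl sets (high-Arntl libraries alone in comparisons with wild-type, a term for the set between mutant groups) and leaving out each library.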

Additional observations from a re-analysis of the deposited data

Results flagged for a closer look

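Each of the 20 members with values in the report was examined in the 6 groups of 5 libraries for a library standing apart, by the gap to its nearest neighbour as a share of the group's range, against a critical value of 0.71. Of 120 groups 5 exceeded it, and chance alone flags about 1 in 20. Psme2 in replicate 2 of the C151S CDDO-Me group was the clearest, at 54.5 CPM beside a nearest value of 71.2 (share 0.924). Psmd9 was highest in replicate 5 of the wild-type CDDO-Me group, at 40.9 CPM beside 33.2 (share 0.776), and Psme4 was lowest in the same library, at 145 CPM beside 177 (share 0.715). Psmb9 was highest in replicate 3 of the C151S CDDO-Me group, at 16.4 CPM beside 11.6 (share 0.753). Psmb6 was lowest in replicate 5 of the Nrf2-knockout CDDO-Me group, at 115 CPM beside 137 (share 0.729), the library that was the lowest of its group for 27 of the 42 members.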

How the results depend on the processing

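Counts of called members depended on the settings. The wild-type response had 2 called members, 4 with DESeq2, 1 with upper-quartile scaling, without a filter on low counts, with a replicate block or in 1 fit of 30 libraries, and 0 with the size threshold of 0.5. Wild-type against C151S after vehicle had 14, 9 without the filter, 8 with the replicate block, 31 in the high-Arntl libraries alone and 1 with the size threshold. Wild-type against Nrf2-knockout after vehicle had 13, 6 with upper-quartile scaling, 6 with the replicate block, 3 in the high-Arntl libraries alone and 1 with the size threshold. After CDDO-Me the counts of 4 against C151S and 4 against Nrf2-knockout livers became 1 and 2 with the size threshold, and 1 against C151S in the high-Arntl libraries alone.

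Leaving out 1 library gave 1 to 3 called members for the wild-type response, 6 to 18 and 4 to 18 for wild-type against C151S and Nrf2-knockout after vehicle, and 1 to 6 and 4 to 7 after CDDO-Me. The count against C151S livers after CDDO-Me was 1 without replicate 4 or 5 of the C151S group or any of replicates 1 to 4 of the wild-type group, and 2 without replicate 3 of the C151S group. That of the wild-type response was 1 without replicate 1, 2, 3 or 5 after CDDO-Me or replicate 3, 4 or 5 after vehicle. The count stayed 0 in the other comparisons under every alternative run. Same-numbered libraries had correlations over 2000 genes from −0.374 to 0.485, with no comparison above 0.1 in all 5 pairs. In each comparison 0 to 3 of the 5 correlated best with their own number. Their mean correlation was highest for CDDO-Me against vehicle in Nrf2-knockout livers, at 0.188 beside −0.0464 for other pairs. These values do not settle whether the numbers pair the libraries, and the main fits treat them as unpaired. The 30 libraries gave 23667068 counts or more each, so depth limits mainly Psma8, Psmb11 and Psmc3ip, which did not pass.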
